A study of Danio rerio with 7 samples.

Results

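Complex I (NADH:ubiquinone oxidoreductase) genes were examined in embryonic zebrafish hearts homozygous for a nonsense allele of *taf5*. Every Ensembl gene whose zebrafish symbol begins with *nduf*, upper or lower case, was taken. This gave 45 of the 33737 genes in the deposited tables: 38 subunits (*ndufa*, *ndufb*, *ndufs* and *ndufv*) and 7 assembly factors (*ndufaf*). A symbol was found for 65.0% of the gene IDs, and no *ndufc* gene and no *ndufa13* were among the matches. The set may therefore lack some complex I genes. RNA was sequenced at 96 hours post fertilization in 4 libraries of *cora* hearts and 3 libraries of control hearts. The *cora* embryos were homozygous (*cora* stl325/stl325), the controls were their unaffected clutchmates, and both carried *Tg(cmlc2::gfp)*. The stl325 allele of *cora* (*corazoncito*) came from a chemical mutagenesis screen and is a nonsense mutation of *taf5*, a subunit of the general transcription factor TFIID. The transgene places green fluorescent protein under the *cmlc2* promoter, which is active in heart muscle. Each library came from a pool of 100 hearts, and the sources do not say whether pools were separate clutches, so p-values measure only the spread between these pools. The control libraries are labelled wild type, but unaffected clutchmates can include heterozygous carriers. The labels number the *cora* libraries from 1 to 4 and only 2 of the controls, as 1 and 3.

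Complex I takes electrons from NADH in the mitochondrial matrix, passes them along a flavin and a chain of iron-sulfur clusters to ubiquinone, and uses the energy to pump protons across the inner membrane. Its matrix arm holds the N module, where NADH is oxidized, and the Q module, where ubiquinone is reduced, and the membrane arm holds the proton pumps. A small set of core subunits does the chemistry. The core subunits of the matrix arm are encoded in the nucleus and those of the membrane arm on the mitochondrial chromosome, and around them sit many nuclear accessory subunits. Assembly factors join modules or modify subunits and are not part of the finished enzyme. Mature heart muscle is dense in mitochondria and relies on this enzyme.

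Library depth ran from 21474488 to 32037220 reads assigned to genes. Control replicate 1 stood apart from the other libraries: mitochondrial genes took 33.7% of its reads and 16.8% to 21.8% of the reads elsewhere, and results are therefore also given without it. *taf5* ranged from 5.10 to 8.83 normalized CPM (counts on a common library scale, after TMM) in control and from 1.97 to 4.56 in *cora* libraries. All *cora* libraries were thus below all controls, as was the case for 8.73% of all genes. Its log2 fold change was -0.94 (standard error 0.38), with an unadjusted p of 0.0333 and a Benjamini-Hochberg adjusted p of 0.232 by edgeR. Of 15 cardiomyocyte markers 8 had a matching symbol, among them *myl7*, *cmlc1* and *nppa*, and their 9 genes were detected in every library. The summed level of these 9 genes ranged from 238 to 3018 normalized CPM in control and from 256 to 1549 in *cora* libraries. The library titles read zebrafish embryos, whereas the tissue label and the paper give hearts. Although the tissue is labelled heart, 12 liver markers summed to 8694 to 28205 in control and 3679 to 27879 in *cora* libraries. For 9 of 10 epidermal markers the sums were 10853 to 37824 and 17354 to 29432. Of 11 exocrine pancreas markers 8 had a matching symbol, and they summed to 5478 to 20250 in control and 401 to 1018 in *cora* libraries. All *cora* libraries were below all controls for this sum and for each of the 8 genes, against 8.73% of all genes. The 3 of 7 lens markers that matched summed to 226 to 513 and 952 to 11604. All *cora* libraries were above all controls for this sum, against 9.01% of all genes, but the groups overlapped for *cryaa*, the least abundant of the 3. For 6 of 10 skeletal muscle markers the sums were 1951 to 7636 and 2811 to 9570. None of these markers was at 0 in a library, and their part in the results was not tested. In such pools fewer cells of a type and less RNA per cell cannot be told apart.

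Complex I transcripts differed widely in abundance. Measured as normalized counts per kilobase of exon, the median over the 7 libraries was highest for *ndufb9*, an accessory subunit of the membrane arm, at 223, and for *ndufs7*, a core subunit of the Q module, at 195. *ndufb8* and *ndufb10*, both of the membrane arm, came next on the same scale at 169 and 163. The nuclear core subunits lay between 36.9 (*ndufs1*) and 195. All 7 assembly factors stood among the 10 lowest members, from 20.3 (*ndufaf1*, rank 36 of 45) to 3.86 (*ndufaf7*, rank 43). Below them came only *ndufv3*, at 1.49, and *ndufa4l2b*, at 1.19. These last 2 were counted with as few as 6 and 2 reads in a library, whereas the other 43 members had at least 10 reads in every library, and so counting error adds to the spread for these 2. *ndufb3*, *ndufb4*, *ndufb6*, *ndufb7*, *ndufb8*, *ndufb9*, *ndufb10*, *ndufa3*, *ndufa5*, *ndufa12*, *ndufv3*, *ndufa4l2b*, *ndufaf2*, *ndufaf4* and *ndufaf8* are named after their values were seen, and the other members by a rule given with the methods.

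The comparison of *cora* with control hearts asks whether loss of *taf5* changes transcripts of the respiratory chain. The subunits leaned to lower levels in *cora* hearts, but no single one passed the test. A log2 fold change below 0 was found for 37 of 38 subunits, against 52.2% of all 21632 genes tested, and the median was -0.31, against -0.03 over all genes. The summed subunit level in *cora* was 0.805 of that in control libraries. All 45 members passed the filter on low counts. None was lower at an adjusted p under 0.05 by the edgeR quasi-likelihood test (Benjamini-Hochberg over all genes tested), where 0.860% of all genes were, and none was higher, where 1.11% of all genes were. DESeq2 also called 0 members, where it called 805 of 21632 genes lower and 984 higher. Limma's voom called 0 members as well, where it called 182 genes lower and 206 higher. Voom with sample quality weights called 1, *ndufb7*, where it called 6.79% of all genes lower. At an unadjusted p under 0.05, 1 member was lower, *ndufaf1*, against 8.61% of all genes, and 1 was higher, *ndufaf7*, against 9.13%. The standard error (SE) of the log2 fold change had a median of 0.26 over the subunits, and the 95% interval included 0 for all 38. For a typical subunit the interval thus holds 0 as well as the median of the group. The members are not replicates of one another, since all of them were read from the same 7 pools.

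**Figure D1:**
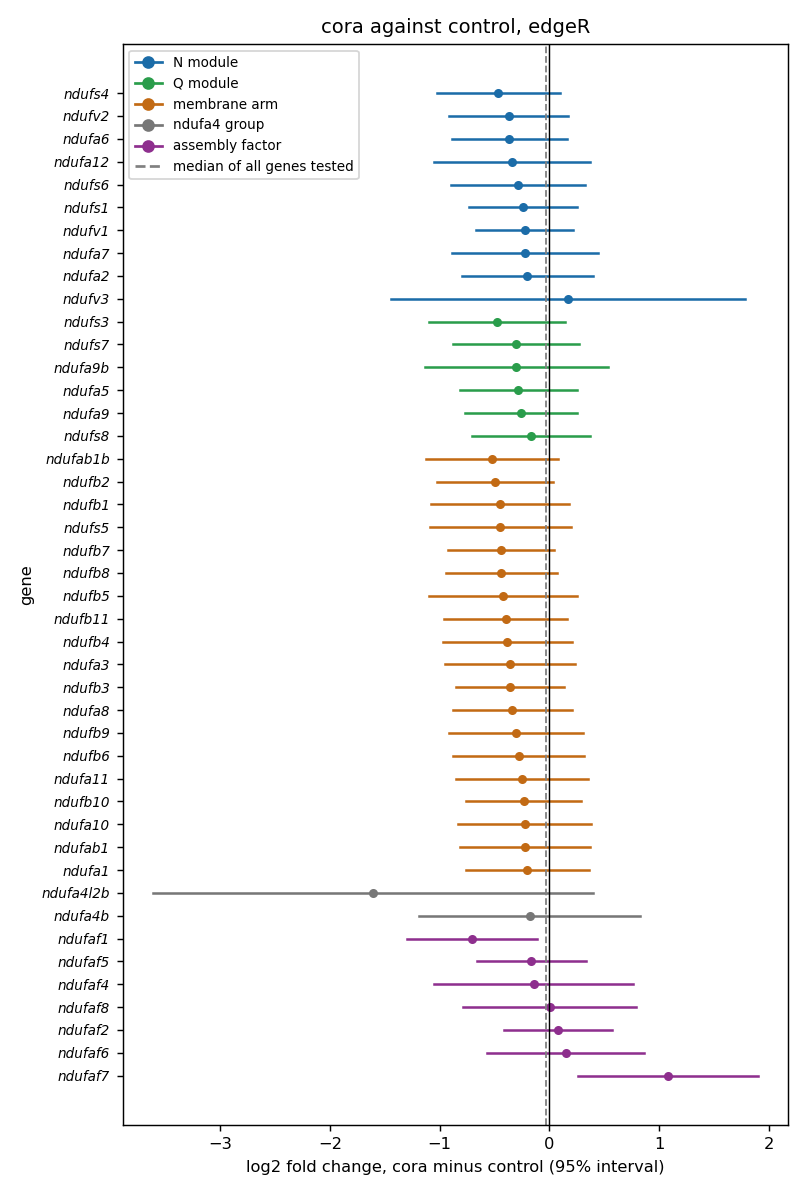
Log2 fold change (cora minus control) of the nduf genes named, each with its 95% interval from edgeR, coloured by module, with the median of all genes tested as a dashed line. The points of all subunits drawn but ndufv3 lie below 0, and the intervals of ndufaf1 and ndufaf7 alone leave 0 out.

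In the N module, 9 of 10 subunits had a log2 fold change below 0, with a median of -0.26. Its core subunit *ndufv1* (ENSDARG00000036438, chromosome 19 from 9834567 to 9851048), which binds NADH and the flavin, was at 149.4, 171 and 172 normalized CPM in the control libraries, here and below in the order replicate 1, replicate 3, unnumbered. In *cora* replicates 1 to 4 it was at 121, 134, 148.9 and 157. The groups overlapped, as only replicate 4 of the *cora* libraries passed the lowest control, and the log2 fold change was -0.23 (SE 0.20, adjusted p = 0.606 by edgeR). *ndufv2* (ENSDARG00000013044, chromosome 2 from 55227956 to 55277424), which holds an iron-sulfur cluster next to the flavin, was at 58.3, 91.5 and 82.5 in the control libraries, in the same order, and at 56.3, 44.9, 68.1 and 70.4 in *cora* replicates 1 to 4. Its log2 fold change was -0.37 (SE 0.24), with control replicate 1 inside the *cora* range. *ndufs1* (ENSDARG00000028546, chromosome 6 from 13116491 to 13141926), the core subunit that carries most of the module's iron-sulfur clusters, was at 78.3, 125 and 122 in control and at 97.7, 84.6, 92.7 and 92.4 in *cora* libraries. Here control replicate 1 was below every *cora* library and the other control libraries were above every one.

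Among the accessory subunits of this module, *ndufs4* (ENSDARG00000052840, chromosome 5 from 42110633 to 42126862), mutated in human Leigh syndrome, had the lowest fold change. It was at 37.6, 64.5 and 53.2 normalized CPM in control and at 43.7, 27.4, 41.5 and 37.5 in *cora* libraries, a log2 fold change of -0.46 (SE 0.25, adjusted p = 0.375 by edgeR). The lowest control library lay between *cora* values. *ndufa2* (ENSDARG00000021984, chromosome 21 from 42557036 to 42560684), a small accessory subunit with a thioredoxin-like fold, was at 23.8, 42.1 and 41.2 in control and 35.3, 24.001, 37.1 and 27.9 in *cora* libraries, with a log2 fold change of -0.20 (SE 0.26). *ndufv3* was the subunit above 0, at 0.17, with a standard error of 0.72 and a 95% interval of -1.45 to 1.78, so its direction was not resolved at this depth.

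All 7 members of the Q module had a log2 fold change below 0, with a median of -0.28. *ndufs3* (ENSDARG00000015385, chromosome 7 from 39980968 to 39986698), a core subunit at the base of the matrix arm, was lowest at -0.48 (SE 0.28, adjusted p = 0.412 by edgeR). It was at 78.3, 144 and 139 normalized CPM in control and 94.98, 64.5, 106 and 80.7 in *cora* libraries. Each *cora* library was below 2 of the control libraries, and 3 of the 4 were above control replicate 1.

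*ndufs7* (ENSDARG00000074552, chromosome 11 from 5877254 to 5887046), which carries the last iron-sulfur cluster before ubiquinone, was at 105, 172 and 154 normalized CPM in control and 128, 86.8, 142 and 107 in *cora* libraries. *ndufs8* (ENSDARG00000051986, chromosome 1 from 45269800 to 45278549), another iron-sulfur subunit, was at 53.3, 93.5 and 80.04 in control and 72.8, 53.6, 72.98 and 69.8 in *cora* libraries. Their log2 fold changes were -0.31 and -0.17 (SEs 0.26 and 0.24), and for both the groups overlapped through control replicate 1. *ndufa9* (ENSDARG00000070723, chromosome 25 from 17129448 to 17139591), an accessory subunit at the junction with the membrane arm, was at 71.6, 112 and 102 in control and 74.6, 68.1, 95.4 and 79.96 in *cora* libraries. A second gene of this name, *ndufa9b* (ENSDARG00000094312, chromosome 10 from 7156934 to 7157675), was at 2.54, 3.85 and 3.27 in control and 2.89, 1.76, 3.46 and 2.38 in *cora* libraries. *ndufa9b* held between 6.33% and 9.21% of the pair's summed level per kilobase of exon in all 7 libraries, and the log2 fold changes of *ndufa9* and *ndufa9b* were -0.26 and -0.30. Copies of a gene can share reads, and how the authors counted such reads is not given in the sources used here.

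The membrane arm had the lowest median of the 3 modules, -0.36, with all 19 members below 0, and its 11 *ndufb* genes had a median of -0.40. Differences between modules were not tested. *ndufab1b* (ENSDARG00000014915, chromosome 3 from 35620417 to 35626677), one of 2 genes for the mitochondrial acyl carrier protein, which also serves fatty acid synthesis, had the lowest value in this arm. It was at 68.3, 136 and 112 normalized CPM in control and 86.6, 56.9, 78.7 and 71.6 in *cora* libraries, a log2 fold change of -0.52 (SE 0.27, adjusted p = 0.354 by edgeR). Its copy *ndufab1* (ENSDARG00000058463, chromosome 1 from 8194184 to 8199549) was at 52.5, 91.2 and 83.1 in control and 68.3, 52.00, 84.4 and 54.9 in *cora* libraries, with a log2 fold change of -0.22 (SE 0.26). Per kilobase of exon *ndufab1* was the more abundant copy, at 74.4 against 51.2. *ndufab1b* held 43.7%, 47.1% and 44.6% of the pair's summed level per kilobase in the control libraries and 43.1%, 39.5%, 35.8% and 43.8% in the *cora* libraries, ranges that meet at their edges.

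*ndufb2* (ENSDARG00000045490, chromosome 4 from 21415859 to 21418821), a small accessory subunit, was at 62.3, 86.1 and 80.7 normalized CPM in control and 62.5, 40.8, 47.7 and 65.7 in *cora* libraries. Its log2 fold change was -0.50 (SE 0.23, adjusted p = 0.311 by edgeR), the lowest adjusted p of any subunit. Every *cora* library was below control replicate 3 and the unnumbered control, and 2 of the 4 were above control replicate 1. *ndufb1* (ENSDARG00000087456, chromosome 20 from 50361663 to 50362039), another small membrane subunit, was at 16.4, 24.2 and 19.96 in control and 16.5, 10.4, 20.1 and 12.2 in *cora* libraries, with a log2 fold change of -0.45 (SE 0.28). *ndufa1* (ENSDARG00000036329, chromosome 14 from 34388966 to 34390425), an accessory subunit whose human gene is X-linked, was nearest to 0 in this arm at -0.20 (SE 0.25). It was at 26.05, 40.02 and 35.8 in control and 31.6, 21.2, 37.3 and 28.1 in *cora* libraries. *ndufb7* (ENSDARG00000033789, chromosome 1 from 56319931 to 56325525), which faces the intermembrane space, was at 69.7, 97.4 and 91.4 in control and 62.9, 50.1, 66.3 and 74.7 in *cora* libraries, and only replicate 4 of the *cora* libraries passed control replicate 1. The log2 fold change of *ndufb7* was -0.44 (adjusted p = 0.332 by edgeR), and its adjusted p was 0.0488 under voom with sample quality weights and between 0.0488 and 0.827 over the alternatives. The exons of *ndufb3* and *ndufb4* overlap those of another gene on the opposite strand by 48 and 150 bases, and whether reads were counted by strand is not stated.

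NDUFA4 was long counted with complex I and is now held to be a subunit of complex IV, so its relatives were described apart. They are still included in the counts, medians and sums given for the 38 subunits. Without them 35 of 36 subunits had a log2 fold change below 0, with a median of -0.31. *ndufa4b* (ENSDARG00000056108, chromosome 12 from 10855556 to 10859059) was at 41.9, 207 and 144 normalized CPM in control and 127, 105, 141 and 90.3 in *cora* libraries. Control replicate 1 had the lowest and control replicate 3 the highest level of this gene, a wider range than that of the *cora* pools. The log2 fold change was -0.18 (SE 0.45), and it ran from -0.59 without control replicate 1 to 0.33 without control replicate 3. *ndufa4l2b*, at 2.15, 0.243 and 0.491 in control and 0.0837, 0.299, 0.277 and 0.575 in *cora* libraries, had a log2 fold change of -1.61 (SE 0.89). The other control libraries lay within the *cora* range, and without control replicate 1 the log2 fold change was -0.23.

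Of the assembly factors 3 of 7 had a log2 fold change below 0, with a median of 0.00 that ran from -0.13 without *cora* replicate 3 to 0.05 without *cora* replicate 4. Both members past the unadjusted threshold were of this kind, and the difference from the subunits was not tested. *ndufaf1* (ENSDARG00000025549, chromosome 13 from 33469752 to 33475359) belongs to the complex that builds the membrane arm together with ECSIT and ACAD9. It was at 42.8, 58.7 and 48.2 normalized CPM in control and 38.6, 19.1, 35.1 and 29.5 in *cora* libraries, so every *cora* library was below every control library, as was the case for 8.73% of all genes. The means were 49.9 ± 8.06 (SD, n = 3) in control and 30.6 ± 8.52 (SD, n = 4) in *cora* libraries (two-sided exact permutation test of log2 levels, p = 0.0571, where 35 splits allow no p below 0.0286). Its log2 fold change was -0.71 (SE 0.26, 95% interval -1.30 to -0.12), with an unadjusted p of 0.0240 and an adjusted p of 0.200 by edgeR. Over the alternatives the adjusted p of *ndufaf1* lay between 0.0536 and 0.770, and without control replicate 3 its unadjusted p was 0.103. Its exons overlap those of *nusap1* by 37 bases and of *rtf1* by 5 on the opposite strand, against an exon length of 1906.

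*ndufaf7* (ENSDARG00000033134, chromosome 20 from 3316465 to 3326934) encodes a protein methyltransferase that acts early in assembly. It was at 3.83, 6.10 and 5.20 normalized CPM in control and 9.54, 6.36, 16.7 and 10.2 in *cora* libraries, so every *cora* library was above every control library, as was the case for 9.01% of all genes. The means were 5.04 ± 1.14 (SD, n = 3) in control and 10.7 ± 4.35 (SD, n = 4) in *cora* libraries (two-sided exact permutation test of log2 levels, p = 0.0571). The log2 fold change of 1.08 (SE 0.36, 95% interval 0.26 to 1.90) was the highest of the 45 members, with an unadjusted p of 0.0153 and an adjusted p of 0.164 by edgeR. The adjusted p lay between 0.0622 and 0.389 over the alternatives, and the log2 fold change was 0.79 without *cora* replicate 3, the highest library. *ndufaf7* was also one of the least abundant members, counted with at least 89 reads in each library.

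The other assembly factors had groups that overlapped. *ndufaf5* (ENSDARG00000061629, chromosome 1 from 51731024 to 51739160), which hydroxylates NDUFS7 in human cells, was at 31.3, 21.7 and 26.8 normalized CPM in control and 18.9, 28.4, 23.5 and 24.1 in *cora* libraries, with a log2 fold change of -0.16 (SE 0.22). Its exons share 132 bases with a gene on the opposite strand. *ndufaf6* (ENSDARG00000053652, chromosome 16 from 43154250 to 43175142), which acts in early assembly of the membrane arm, was at 7.75, 17.5 and 12.7 in control and 11.01, 11.9, 18.2 and 15.1 in *cora* libraries, with a log2 fold change of 0.15 (SE 0.32) that turned to -0.10 without control replicate 1. *ndufaf2*, a relative of the subunit *ndufa12* that holds its place during assembly, was at 0.08. *ndufaf4*, needed for the Q module, was at -0.14, and *ndufaf8*, the partner of *ndufaf5*, at 0.00, with standard errors between 0.22 and 0.40 for these 3.

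**Figure D2:**
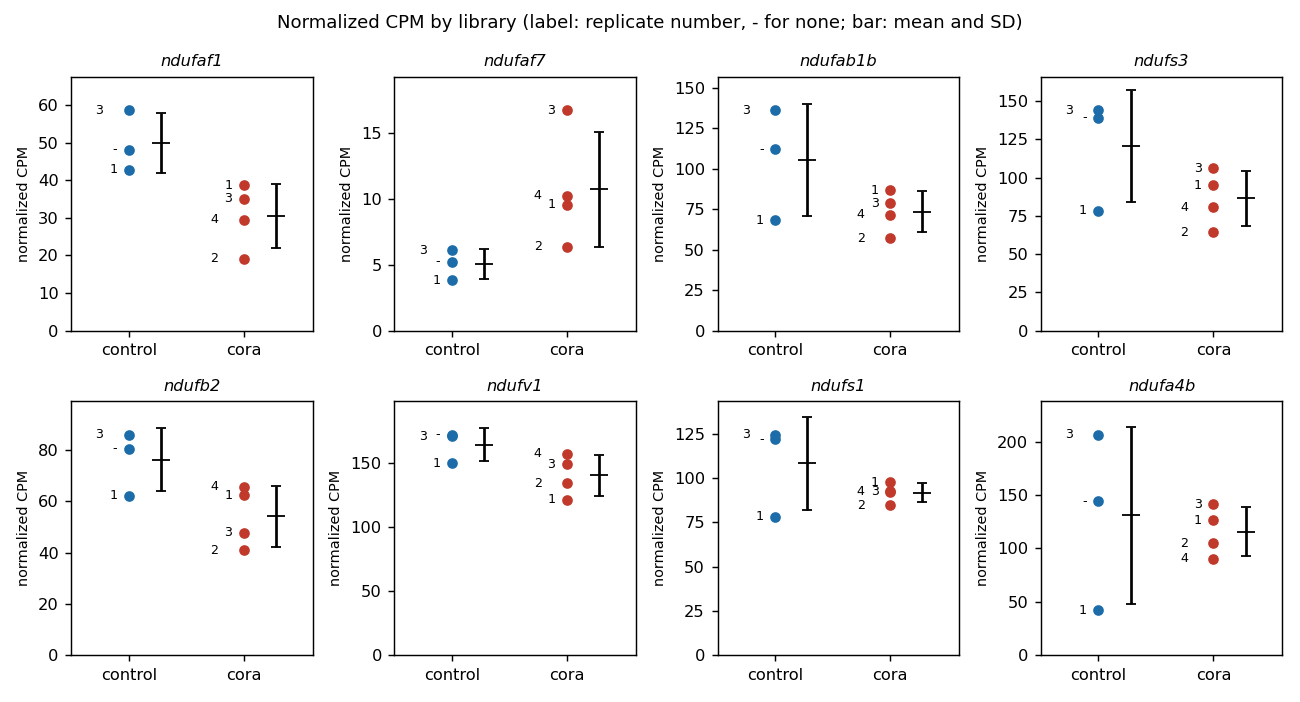
Normalized CPM (vertical axis, linear, from 0) of 8 nduf genes in each library, with the replicate number beside each point (a dash for the unnumbered control) and the mean and SD of each group. The cora libraries are all below the controls for ndufaf1 and all above them for ndufaf7, and the groups overlap for the other 6 genes.

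The subunits moved together from pool to pool. The mean log2 level of the 38 subunits, relative to each gene's mean over the 7 libraries, was -0.24 in control replicate 1, 0.46 in control replicate 3 and 0.29 in the unnumbered control. In *cora* replicates 1 to 4 it was -0.01, -0.46, 0.09 and -0.12. Other respiratory genes took a similar course. In the same order the mean was -0.25, 0.49 and 0.30 in control and -0.03, -0.43, 0.02 and -0.10 in *cora* libraries for 19 ATP synthase genes. For 8 genes of complex III it was -0.42, 0.42 and 0.30 in control and 0.06, -0.39, 0.05 and -0.03 in *cora* libraries. Control replicate 3 was the highest library for 32 of the 38 subunits, and *cora* replicate 2 the lowest for 28. The shares of all genes for these counts are not given here. The summed subunit level was 2177, 3694 and 3322 normalized CPM in the control libraries and 2573, 1976, 2806 and 2513 in the *cora* libraries. Control replicate 1 therefore lay inside the *cora* range, and it was below the *cora* median for 31 of 38 subunits. The other control libraries were both above all 4 *cora* libraries for 32 of 38 subunits, against 18.9% of all genes tested.

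**Figure D3:**
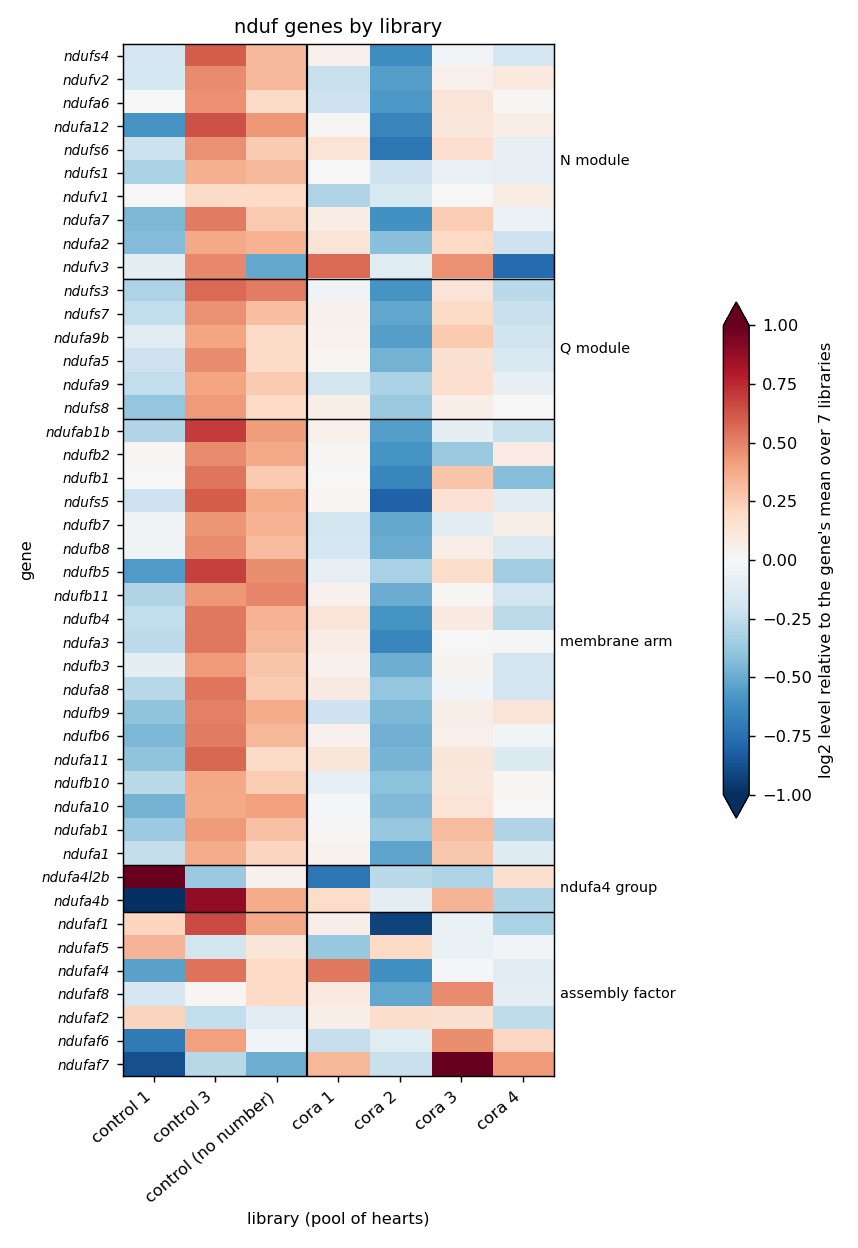
Log2 level of the nduf genes named (rows, grouped by module) in each library (columns), relative to the gene's mean over the 7 libraries, with red for higher and blue for lower. Control replicate 3 is the highest library and cora replicate 2 the lowest for most subunits and for ndufaf1 and ndufaf4, and the other assembly factors vary in other ways.

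How closely each gene followed the rest was described by Pearson's r with the mean of the other subunits over the 7 libraries. Both values of a pair come from the same libraries, so differences in depth and tissue mix between libraries act on both. The median r was 0.95 over the subunits, and 28 of the 38 had an r above 0.9. The share of all genes with such an r is not given here. *ndufs3* (0.98), *ndufa5* (0.98) and *ndufs7* (0.98) followed most closely. Taking the mean of the other subunits away from each gene brought the median SD over the libraries, on the log2 scale, from 0.36 to 0.13. The subunits that followed least were *ndufa4l2b* (-0.37), *ndufv3* (0.24), *ndufv1* (0.62) and *ndufa4b* (0.67). Among the 7 assembly factors the median r was 0.56 and none was above 0.9. *ndufaf1* (0.85) and *ndufaf4* (0.83) followed the subunits, *ndufaf7* did not (0.08), and *ndufaf5* (-0.49) and *ndufaf2* (-0.62) ran the other way. The SD of *ndufv1* over the libraries was 0.18 on the log2 scale, below the subunits' median of 0.36.

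The cardiomyocyte markers moved between pools with the subunits. Their mean relative log2 level was -1.82, 1.92 and 0.89 in the control libraries, in the order above, and 0.88, -1.20, 0.32 and -0.98 in the *cora* libraries. Control replicate 3 was highest for both gene groups, and control replicate 1 and *cora* replicate 2 were the lowest pair for both. The markers spread more widely than the subunits, and the groups overlapped for both. Other marker sets also shifted between pools. The exocrine pancreas markers were likewise highest in control replicate 3 (3.62) and lowest in *cora* replicate 2 (-2.93). The epidermal markers were highest in control replicate 1 (1.00) and lowest in control replicate 3 (-0.44). The liver, skeletal muscle, neuron and lens markers were highest in *cora* replicate 4, and the erythrocyte markers in control replicate 1. The part of any of these marker sets in the subunit levels was not tested.

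Without control replicate 1, the subunits stood further below the control. The median log2 fold change of the 38 subunits became -0.48, with 37 below 0, against 49.1% of all genes. At an unadjusted p under 0.05, 17 subunits and *ndufaf1* were lower, against 10.4% of all genes. *ndufab1b* then had a log2 fold change of -0.75 and *ndufs3* of -0.70. No member was lower at an adjusted p under 0.05 by edgeR without that library either, where 2.48% of all genes were, with a lowest adjusted p of 0.0941 for *ndufab1b*. Without control replicate 3 the subunit median was -0.13, with 33 of 38 below 0, against 51.2% of all genes, and 0 lower at an unadjusted p under 0.05, against 5.99%. Without *cora* replicate 2, the lowest pool, it was -0.20. The medians of the N module, the Q module and the membrane arm were -0.45, -0.43 and -0.54 without control replicate 1 and -0.12, -0.11 and -0.17 without control replicate 3. With 1 *cora* library left out the subunit median ran from -0.39, without *cora* replicate 3, to -0.20. The subunit median stayed below 0 whichever library was left out, and its size depended on which control and *cora* pools were in the fit.

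**Figure D4:**
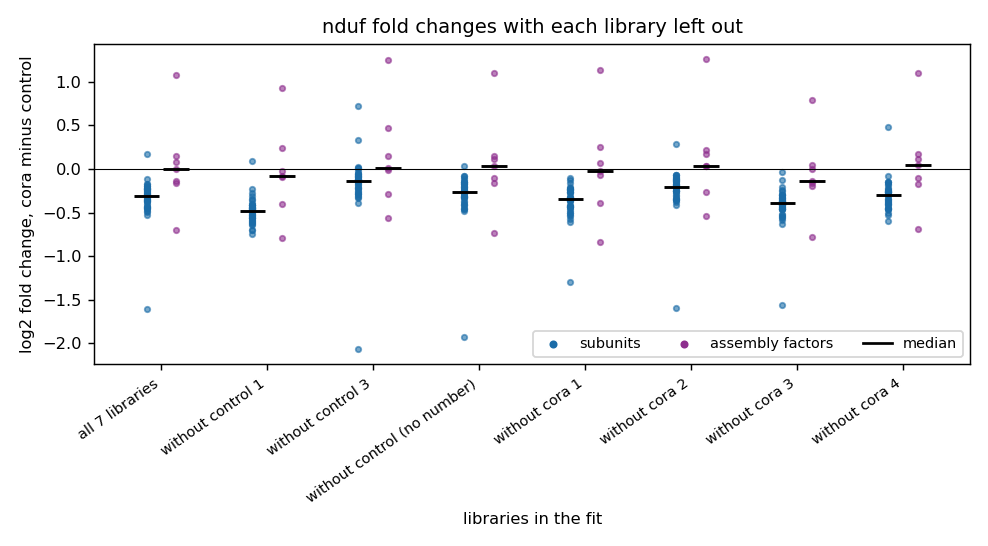
Log2 fold change (cora minus control) of the 38 subunits and 7 assembly factors with all 7 libraries and after leaving out each library, each point a gene and each bar a median. The subunit median moves between -0.48 without control replicate 1 and -0.13 without control replicate 3.

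The 7 core subunits encoded on the mitochondrial chromosome showed another pattern over the pools. All 7 had a log2 fold change below 0, with a median of -0.28 and none at an adjusted p under 0.05 by edgeR, but control replicate 1 was their highest library in 7 of 7. Without that library 3 of 7 were below 0 and the median was 0.07. *mt-nd3* (ENSDARG00000063914), a small proton-pump subunit, was at 328, 209.7 and 184 normalized CPM in control and 169, 120.3, 162 and 183 in *cora* libraries. All *cora* libraries were below all control libraries for *mt-nd3*, by a narrow margin over the unnumbered control. This was so for 1 of the 7 genes, against 8.73% of all genes. *mt-nd3* had a log2 fold change of -0.60 (SE 0.26, unadjusted p = 0.0482 and adjusted p = 0.277 by edgeR). It was the 1 gene of the 7 that was lower at an unadjusted p under 0.05, against 8.61% of all genes. Without control replicate 1 the log2 fold change of *mt-nd3* was -0.30 with an unadjusted p of 0.222 by edgeR, and the unadjusted p was also above 0.05 without control replicate 3 or *cora* replicate 1, 2 or 3. *mt-nd5* (ENSDARG00000063921), a large antiporter-like subunit, was at 2899, 1673 and 1525 in control and 1746, 1843, 1730.1 and 1917 in *cora* libraries, where the control pools enclosed the *cora* pools.

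Set against the nuclear core subunits of the matrix arm, the mitochondrially encoded subunits summed to 26.6, 10.2 and 9.68 times their level in the control libraries, and to 13.4, 15.8, 11.7 and 14.7 times in the *cora* libraries, as a ratio of summed normalized CPM. The ratio was above that of control replicate 3 and the unnumbered control in all 4 *cora* libraries and below that of control replicate 1. The mitochondrial share of all counts, given with the libraries, was also highest in control replicate 1, and its part in this ratio was not tested.

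**Figure D5:**
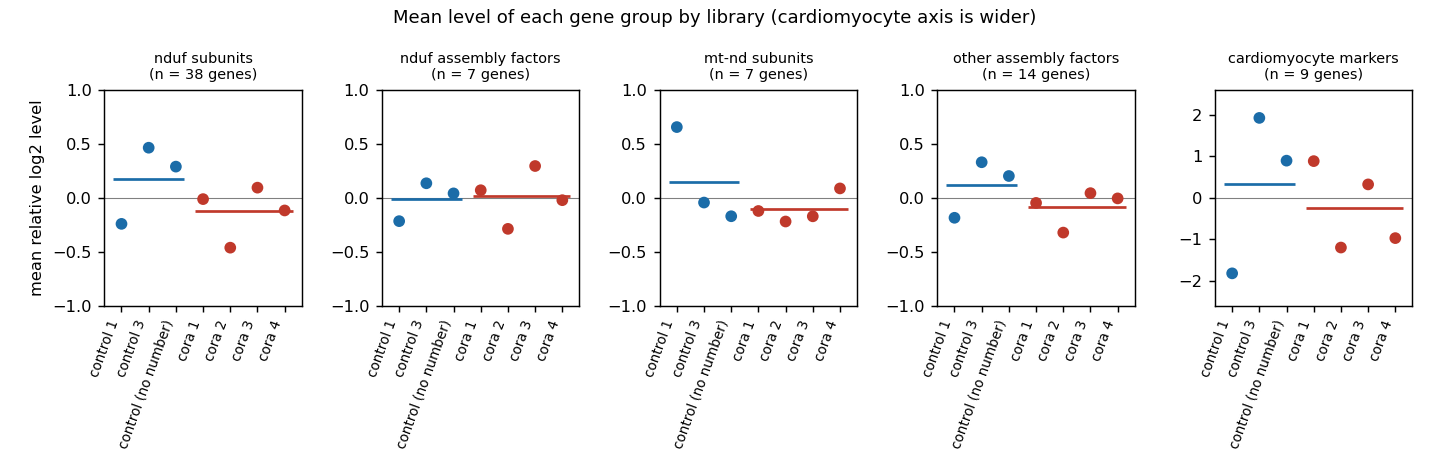
Mean log2 level of 5 gene groups in each library, relative to each gene's mean over the 7 libraries, with group means as lines; the axis of the cardiomyocyte markers is wider. Control replicate 1 is low for the nduf subunits and the cardiomyocyte markers and highest for the mt-nd subunits.

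Of 18 further assembly and import factors listed, 14 had a matching symbol, and 11 of these had a log2 fold change below 0, with a median of -0.19. None passed an adjusted p of 0.05 by edgeR, and 1 of the 14 was lower at an unadjusted p under 0.05, against 8.61% of all genes. *coa1* (ENSDARG00000076360), which acts in the early assembly of respiratory complexes, was at 6.67, 6.40 and 4.42 normalized CPM in control and 3.98, 2.32, 3.97 and 3.24 in *cora* libraries, with a log2 fold change of -0.79 (SE 0.33, unadjusted p = 0.0393 and adjusted p = 0.252 by edgeR). Its unadjusted p was above 0.05 without control replicate 1 or 3 or *cora* replicate 2 or 4, at 0.0734 to 0.118 by edgeR. *timmdc1* (ENSDARG00000053466), an assembly factor of the membrane arm, was also below every control library in every *cora* library. Its log2 fold change was -0.25 (SE 0.18, adjusted p = 0.506 by edgeR). Such a separation was found for 2 of the 14, against 8.73% of all genes. Partners of *ndufaf1* in assembly are on this list. *ecsit* was at a log2 fold change of 0.39 (SE 0.27) and *acad9* at -0.13 (SE 0.30), and neither passed the test. Without control replicate 3, 7 of the 14 were below 0 with a median of -0.09, and without the unnumbered control the median was -0.11.

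A list of regulators of respiratory genes and other mitochondrial factors, among them *tfam* and *clpp*, showed no common direction. Of 19 listed, 11 had a matching symbol and 10 were tested, with 5 below 0 and a median of -0.01. None was at an unadjusted p under 0.05, where 8.61% of all genes were lower and 9.13% higher. *esrra*, a nuclear receptor that drives oxidative genes in muscle, had a log2 fold change of -0.50 (SE 0.26), and its coactivator *ppargc1a* of -0.36 (SE 0.28). *nrf1* and *gabpa*, activators that bind promoters of respiratory genes, were at -0.06 and 0.03 (SEs 0.19 and 0.25). *tfam*, which packages mitochondrial DNA, was at -0.30 (SE 0.20). The highest of the list were *clpp* at 0.27 (SE 0.28), *gabpb2a* at 0.23 (SE 0.27) and *gabpb1* at 0.22 (SE 0.39).

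The other respiratory complexes place these values. The median log2 fold change was -0.45 for 15 genes of complex IV, -0.33 for 19 of ATP synthase and -0.19 for 8 of complex III, and 15, 18 and 8 of them were below 0. For 3 genes of complex II it was 0.04, with 1 below 0. None of these genes passed an adjusted p of 0.05 by edgeR, and 3 of complex IV and 3 of ATP synthase were lower at an unadjusted p under 0.05, against 8.61% of all genes. Those of ATP synthase fell to 0 without control replicate 3, the unnumbered control or *cora* replicate 1, 2 or 4. At an adjusted p under 0.05, DESeq2 called 2 genes of complex IV lower, where it called 805 of 21632 genes lower. Voom with sample quality weights called 4 of complex IV and 7 of ATP synthase lower, against 6.79% of all genes. With no filter on low counts edgeR called 1 gene of complex IV lower, against 222 of 28898 genes. With at least 10 counts in every library it also called 1, against 237 of 18164. The complex I subunits, at -0.31 with or without the relatives of NDUFA4, lay within the range of the medians above. No difference between complexes was tested. Without control replicate 1 the medians were -0.64, -0.53, -0.41 and -0.15 for complex IV, ATP synthase, complex III and complex II, and 1 of the 15 genes of complex IV was lower at an adjusted p under 0.05 by edgeR, against 2.48% of all genes. Without control replicate 3 they were -0.17, -0.13, 0.02 and 0.10. Complex III was also nearer to 0 without the unnumbered control, at -0.09, and without *cora* replicate 2, at -0.09.

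The members lie on 20 chromosomes in the Zv9 build. On chromosome 1, where *taf5* lies, there are 5: *ndufab1*, *ndufb6*, *ndufs8*, *ndufaf5* and *ndufb7*. *ndufaf5* is the closest, at 1.81 megabases from *taf5*, and *ndufs8* is 4.65 megabases away. Variants that travel with the stl325 allele and loss of *taf5* cannot be told apart for such neighbours. The log2 fold changes of these 5 genes ran from -0.44 to -0.16, within the range of the members elsewhere.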

How the data were processed

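Libraries were made with a SMARTer mRNA kit. The authors deposited 1 table per library with 33737 Ensembl genes, their exons on the Zv9 build and 3 values. The counts deposited by the authors are whole reads per gene without normalization. The CPM values deposited by the authors are counts scaled to a common total, and the RPKM values deposited by the authors divide these by exon length. The submitters' processing notes name STAR 2.0.4b, Subread, featureCounts 1.4.5, edgeR and limma, with no role given. How strand and multiply mapped reads were handled is not given in the sources used here. Only the counts were used.

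Gene symbols, written in lower case, were found for 21939 IDs (65.0%). The analysis used edgeR 4.0.16 under R 4.3.3: TMM scaling, filterByExpr by genotype, glmQLFit and glmQLFTest without covariates, and Benjamini-Hochberg adjustment over 21632 genes. The standard error came from the F statistic. Normalized CPM is the count over the TMM-scaled library size, and levels per kilobase divide this by exon length. Relative log2 levels and Pearson's r used log2 of normalized CPM plus 0.5. Exact permutation tests ran over all 35 assignments of 7 libraries to groups of 3 and 4. A depth of 3 counts corresponds to 0.0936 to 0.140 CPM. No 2 libraries of a group agreed within counting error, and each counted as 1 sample. The procedure was tested on simulated data.

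The members and lists were chosen with earlier results of these data known. Named members were those at an adjusted or unadjusted p under 0.05, the 5 lowest and 5 highest subunits and the 2 lowest and 2 highest assembly factors by fold change with a mean log2 CPM of at least 2, the nuclear core subunits, and genes of 1 name with copies, and 1 member that the rule takes is not reported here on its own. Alternatives were upper quartile scaling, DESeq2 size factors or no scaling factor, leaving out the mitochondrial chromosome, DESeq2 1.42.0, limma 3.58.1 voom with and without sample quality weights, another filter on low counts (none, or a minimum of 10 everywhere), leaving out 1 library in turn, and the replicate number as a block.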

Additional observations from a re-analysis of the deposited data

Results flagged for a closer look

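In the *cora* group of 4 libraries, 3 of the 45 members had 1 library far from the others in normalized CPM. The gap between the lowest library and its nearest neighbour, as a share of the whole range, was 0.849 for *ndufa3*, 0.840 for *ndufa12* and 0.835 for *ndufs8*, each above Dixon's 95% critical value for 4 samples. The low library was *cora* replicate 2 in each case, which was also the lowest for 28 of 38 subunits. Chance marks about 1 in 20 groups in this way, and the 3 members share the same low library, so they are not independent.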

How the results depend on the processing

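The counts of calls over all genes moved with the test and with single libraries. The quasi-likelihood test called 186 genes lower and 240 higher, DESeq2's Wald test 805 and 984, and voom with sample quality weights 1469 and 1644. With 1 library left out in turn these counts ran from 25 to 548 lower and from 9 to 659 higher. The highest counts came without control replicate 1, and the counts were at or under 85 in all without control replicate 3, the unnumbered control, *cora* replicate 1 or *cora* replicate 3. The number of *nduf* members called stayed at 0 except for 1 lower under voom with sample quality weights. At an unadjusted p under 0.05 that fit had 21 of 38 subunits lower, against 3433 of 21632 genes. The number of members below 0 ran from 36 to 42 of at most 45 with 1 library left out, and their median from -0.46 to -0.12.

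The labels give the numbers 1 and 3 to libraries of both groups. Over all genes, the difference between replicates 1 and 3 in control had a correlation of 0.088 with that in *cora*. No source says that a number marks a shared clutch. With the replicate block, on those 4 libraries, 0 genes were lower and 0 higher over all genes, 24 of 44 members were below 0, and 7 of the 20 members taken by the naming rule changed sign: *ndufs7* at 0.0095, *ndufa9b* at 0.016, *ndufab1* at 0.14, *ndufa1* at 0.090, *ndufa2* at 0.20, *ndufa4b* at 0.52 and *ndufs8* at 0.048. In that fit 22 of 37 subunits were below 0, with a median of -0.05, against a median of -0.01 over all genes. That fit uses only 4 libraries. Elsewhere *ndufa4b* turned to 0.080 under voom and *ndufaf6* to -0.088 under voom with sample quality weights. With 1 library left out the log2 fold change ran from -0.59 to 0.33 for *ndufa4b*, -0.36 to 0.026 for *ndufs8* and -0.10 to 0.47 for *ndufaf6*. The cause was not tested. The other 329 values of these 20 members kept their direction and their side of the adjusted p threshold of 0.05, though not always of the unadjusted one. Of 24 further members 10 changed sign in at least 1 alternative, 7 of them with the replicate block and 6 in another, with ranges of -0.40 to 0.29 for *ndufaf4*, -0.20 to 0.40 for *ndufaf8*, -0.01 to 0.24 for *ndufaf2* and -0.15 to 0.72 for *ndufv3*. Over the lists, 81 counts and medians stayed close to the reported ones and 21 moved away from them. A planned description of promoter motifs was not run.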
